A study of Mus musculus with 16 samples.

Results

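The genes described here are 9 mouse genes that serve the uptake of thyroglobulin from the thyroid follicle and its breakdown in lysosomes, out of 21640 genes in the count table. They were chosen by name for that role, with earlier results of these data known, and each was found in the table. The receptors were Lrp2, Cubn and Sort1, and the lysosomal proteases were Ctsb, Ctsl, Ctsd, Ctsk, Ctss and Lgmn. Whole thyroids came from wild-type (WT) male C57Bl/6J mice that were 8 weeks old when the diets began. The mice received either a control diet (CD) or a high-fat diet together with sucrose in the drinking water (HF+SD), for 3 or for 6 weeks. There were 4 mice in each of the 4 groups and 1 RNA-seq library per mouse, so the mouse was the replicate. Fat and sucrose were always given together and their effects cannot be told apart. The library names begin with one number at 3 weeks and with another at 6 weeks, so levels were not tested between the time points. Levels are given as CPM, the share of a gene's reads in a library expressed per 1000000 reads, with library sizes corrected by TMM, and "adjusted p" is the edgeR quasi-likelihood p after Benjamini-Hochberg adjustment over all genes tested.

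The thyroid stores its hormone as part of thyroglobulin (Tg), a large glycoprotein that thyrocytes secrete into the follicle lumen. To release hormone, thyrocytes take the protein back up by endocytosis, carry it to acidic lysosomes and cut it with cysteine and aspartic proteases, which frees T4 and T3. Receptors at the apical membrane also bind thyroglobulin and can carry it across the cell or back to the lumen instead of to lysosomes, and some cathepsins are secreted and act on thyroglobulin in the lumen itself.

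Libraries held 30025256 to 48508653 counts. Tg took 26.8% to 29.7% of the counts at 3 weeks and 4.73% to 13.6% at 6 weeks, so the thyrocyte's defining transcript was abundant in every library. Tg itself did not pass the test at either time (log2 fold change 0.04, adjusted p = 0.841 at 3 weeks, and 0.45, adjusted p = 0.27 at 6 weeks). Among the CD mice at 6 weeks, 34 skeletal muscle genes took 17.3% of the counts in M45, 12.4% in M48, 4.08% in M43 and 0.118% in M22, against at most 0.488% in any HF+SD mouse of that time and at most 0.0278% in any 3-week mouse. M45 and M48 therefore stood apart from the other libraries, and each 6-week call on the 9 genes is also given without both of them. That fit keeps only M22 and M43 as CD mice and is not free of the muscle difference. The skeletal muscle genes still had a median log2 fold change of -3.05 in it. Their part in the results was otherwise not tested. Because whole glands were sequenced, a change in the number of cells of a type and a change in RNA per cell cannot be told apart.

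After 6 weeks on the HF+SD, 5 of the 9 genes rose, namely Lrp2, Ctsl, Ctsk, Ctsb and Ctsd, and none fell. After 3 weeks, 2 rose, namely Ctsb and Ctsd, and none fell. In this fit Sort1, Ctss and Lgmn passed at neither time, though at 3 weeks Ctss was called lower under several alternatives and Sort1 under 1, as given with each gene. Cubn had too few counts to be tested. Of the 8 genes that could be tested, 5 were thus higher at 6 weeks, where 12.0% of 18249 tested genes were higher and 9.55% were lower. At 3 weeks the shares over 17238 tested genes were 9.07% higher and 5.78% lower. The median log2 fold change of the 8 genes was 0.64 at 6 weeks and 0.20 at 3 weeks, against a median over all tested genes of -0.01 at both times. With a minimum of 1 added on the absolute log2 fold change, none of the 8 was left at either time, where 12.6% of all tested genes were past both limits at 6 weeks and 4.66% at 3 weeks. Each of the rises was thus estimated at less than a doubling. For Lrp2 and Ctsl at 6 weeks the log2 fold change of 0.99 lay within 1 SE of a doubling. With 1 mouse left out it reached 1.12 for Lrp2 and 1.11 for Ctsl.

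**Figure D1:**
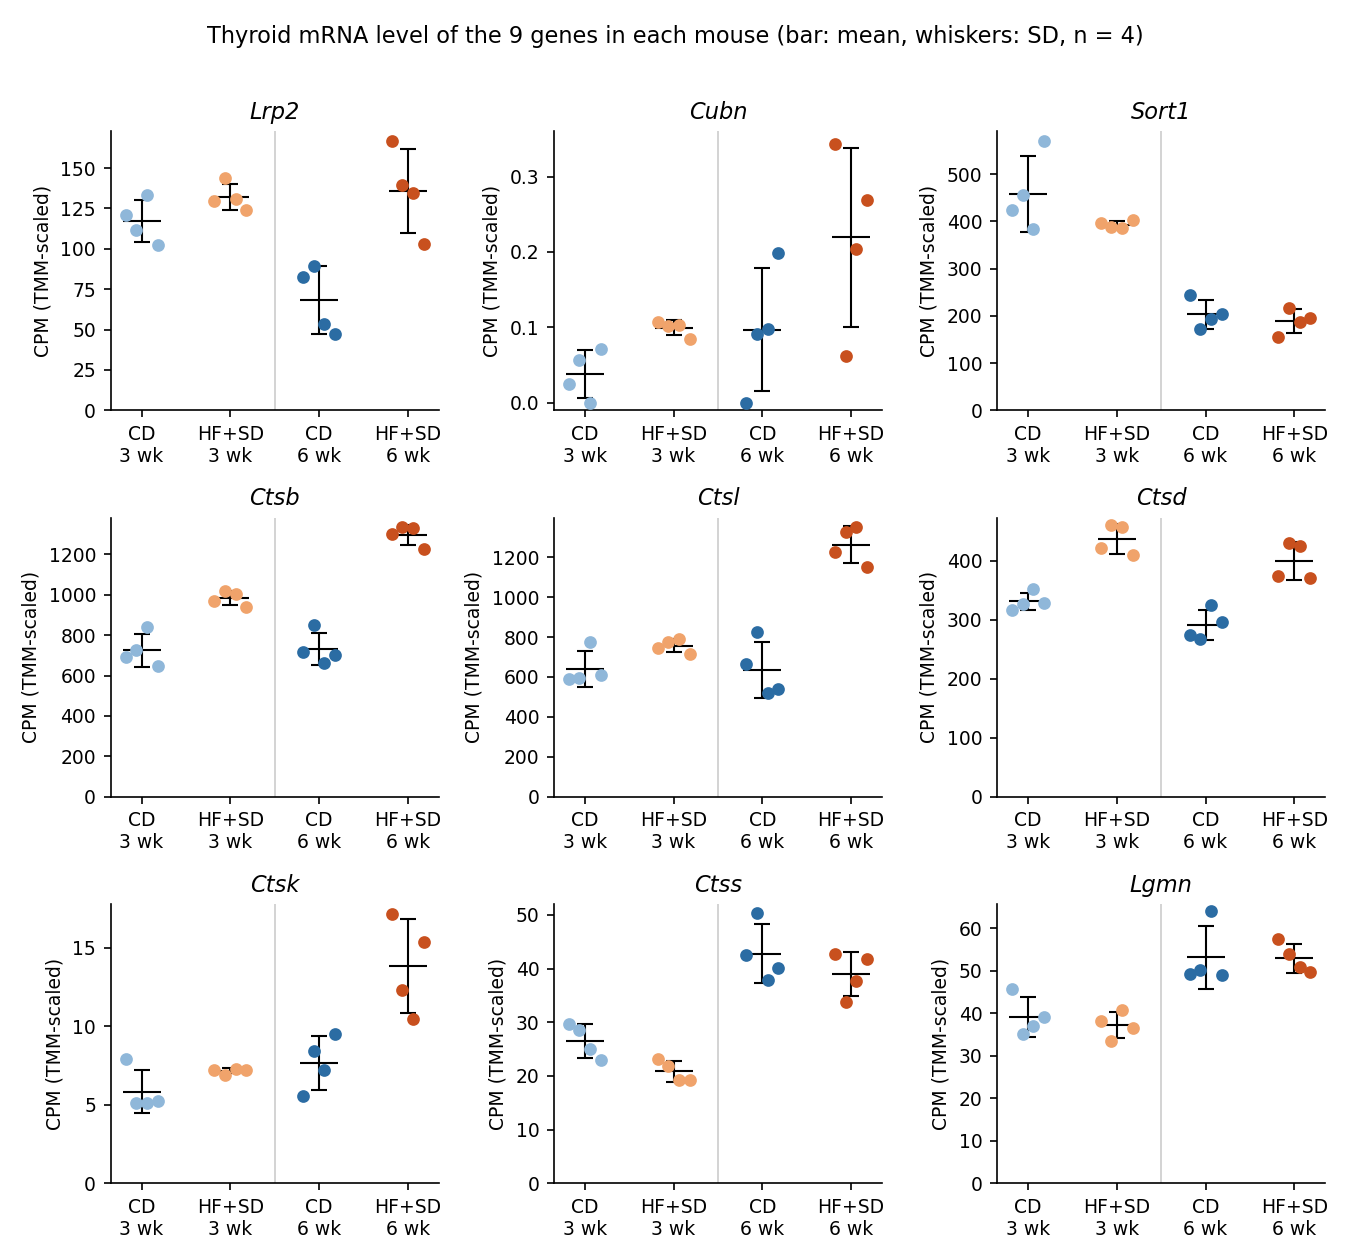
Each panel shows 1 gene, with TMM-scaled CPM on a linear axis and 1 point per mouse, the horizontal bar at the group mean and whiskers of 1 SD (n = 4). At 6 weeks all HF+SD mice lie above all CD mice for Lrp2, Ctsb, Ctsl, Ctsd and Ctsk, while Sort1, Ctss and Lgmn overlap and Cubn stays below 0.35 CPM.

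Lrp2 (ENSMUSG00000027070.15) encodes megalin, a large endocytic receptor at the apical face of thyrocytes that binds thyroglobulin. After 6 weeks the CD mice M48, M45, M43 and M22 had 47.6, 53.8, 89.4 and 82.6 CPM. The HF+SD mice M5, M18, M34 and M35 had 166.8, 139.5, 134.5 and 103.3 CPM. None of the HF+SD mice reached down into the CD range, and the lowest CD values were those of M45 and M48. The mean rose from 68.3 ± 20.8 to 136.0 ± 26.04 CPM (SD, n = 4), a log2 fold change of 0.99 (SE 0.24, adjusted p = 0.0188). Without M45 and M48 it was 0.67 and no longer passed (adjusted p = 0.0788). Leaving out M18 or M34 also ended the call, with adjusted p of 0.0541 and 0.0514 and log2 fold changes of 0.99 and 1.01. At 3 weeks the CD mice had 102.6 to 133.4 CPM and the HF+SD mice 124.1 to 143.6 CPM, with overlap, and the log2 fold change was 0.17 (SE 0.09, adjusted p = 0.24).

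Cubn (ENSMUSG00000026726.11) encodes cubilin, a receptor that works together with megalin in kidney and other absorptive epithelia. Only 68 of its reads were counted in the 16 libraries. The sums over 4 mice were 6 in CD and 16 in HF+SD at 3 weeks, and 14 in CD and 32 in HF+SD at 6 weeks. Each HF+SD mouse at 3 weeks had 4 counts, while CD mice had 0 to 3. The 6-week ranges overlapped, with 0 to 7 counts in CD and 2 to 13 in HF+SD. At this depth no difference could be tested, and reads of an overlapping gene on the opposite strand, Gm13270, share 368 bases of exon with Cubn. Amn, the partner that anchors cubilin in the membrane, was also too low to be tested.

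Sort1 (ENSMUSG00000068747.15) encodes sortilin, a sorting receptor of the Vps10p family that binds thyroglobulin and also carries enzymes between the Golgi and endosomes. At 3 weeks CD mice M53, M54, M55 and M96 had 423.3, 455.7, 383.5 and 570.1 CPM, and the HF+SD mice had 386.0 to 402.2 CPM. The HF+SD mice lay close together, within the CD range. Sort1 had a log2 fold change of -0.22 (SE 0.11, adjusted p = 0.224), and -0.39 when a muscle score entered the fit, which then passed (adjusted p = 0.043). At 6 weeks CD mice had 172.5 to 244.8 CPM and HF+SD mice 156.2 to 217.1 CPM, with a log2 fold change of -0.11 (SE 0.16, adjusted p = 0.67). The 2 receptors with enough counts thus gave different results at 6 weeks, where Lrp2 passed and Sort1 did not, and the difference between the genes was not tested.

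Ctsb (ENSMUSG00000021939.9) encodes cathepsin B, a cysteine protease that both cuts inside proteins and trims their ends. At 3 weeks the CD mice M53, M54, M55 and M96 had 689.4, 726.7, 838.3 and 649.4 CPM. The HF+SD mice M7, M19y, M20y and M31 had 969.4, 1016, 1005 and 940.3 CPM. No HF+SD value fell within the CD range, and Ctsb rose by a log2 fold change of 0.44 (SE 0.09, adjusted p = 0.0127). On the longer diet the CD mice M48, M45, M43 and M22 had 701.6, 660.4, 848.3 and 715.5 CPM, and the HF+SD mice M5, M18, M34 and M35 had 1298, 1333, 1330 and 1228 CPM. The groups were again apart, with means of 731.5 ± 81.3 and 1297 ± 48.8 CPM (SD, n = 4). The log2 fold change was 0.83 (SE 0.15, adjusted p = 0.0068), and 0.74 without M45 and M48 (adjusted p = 0.0171). With 1 mouse left out at a time it stayed between 0.77 and 0.87 at 6 weeks and between 0.39 and 0.51 at 3 weeks and passed in all 16 cases. Ctsb shares 774 bases of exon with Fdft1 on the opposite strand, and whether the counting used strand is not given in the sources used here. Fdft1 was at 64.4 CPM in CD and 65.7 CPM in HF+SD at 6 weeks (log2 fold change 0.03, adjusted p = 0.923).

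Ctsl (ENSMUSG00000021477.10) encodes cathepsin L, a cysteine endopeptidase. At 6 weeks the CD mice M48, M45, M43 and M22 had 537.9, 521.6, 824.7 and 663.5 CPM. The HF+SD mice M5, M18, M34 and M35 had 1225, 1326, 1349 and 1149 CPM. The lowest HF+SD mouse was well above the highest CD mouse, and M45 and M48 were again the lowest. The mean rose from 636.9 ± 140.3 to 1262 ± 92.7 CPM (SD, n = 4), with a log2 fold change of 0.99 (SE 0.19, adjusted p = 0.0083) and of 0.77 without M45 and M48 (adjusted p = 0.0219). At 3 weeks the CD mice M53, M54, M55 and M96 had 587.5, 592.7, 775.3 and 609.3 CPM, and the HF+SD mice M7, M19y, M20y and M31 had 747.5, 774.9, 788.6 and 713.8 CPM. Only M55 among the CD mice reached into the HF+SD range. This gave a log2 fold change of 0.24 (SE 0.10, adjusted p = 0.146), and without M55 it was 0.34 and passed (adjusted p = 0.00493). Ctsl shares 1742 bases of exon with Gm47123 on the opposite strand and 395 with Gm49230 on its own strand, whose values were not analysed here.

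Ctsd (ENSMUSG00000007891.17) encodes cathepsin D, the aspartic endopeptidase of the group. At 3 weeks the CD mice M53, M54, M55 and M96 had 317.4, 327.2, 352.2 and 328.5 CPM. The HF+SD mice M7, M19y, M20y and M31 had 421.9, 461.0, 457.5 and 409.1 CPM. All 4 HF+SD mice were above all 4 CD mice, and the log2 fold change was 0.40 (SE 0.07, adjusted p = 0.00695). In the 6-week groups the CD mice M48, M45, M43 and M22 had 296.2, 325.8, 267.9 and 274.6 CPM, and the HF+SD mice M5, M18, M34 and M35 had 373.7, 430.7, 424.4 and 371.7 CPM. The groups did not overlap, and unlike Ctsl and Lrp2, Ctsd had its highest CD value in M45. The log2 fold change of 0.46 (SE 0.14, adjusted p = 0.042) was close to that at 3 weeks, and it was 0.57 without M45 and M48 (adjusted p = 0.0435). This was the least firm of the 6-week calls: it was lost on leaving out M43, M48, M5, M18, M34 or M35, with adjusted p from 0.0623 to 0.121, and kept without M22 or M45. With DESeq2 size factors in edgeR it was 0.44 and did not pass (adjusted p = 0.0591). Ctsd shares 808 bases of exon with Gm49369 on the same strand, whose values were not analysed here.

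Promoter sequence was read for the genes with an entry in the RefSeq table of GRCm38.p6, which covers 250 bases before to 50 bases after a gene start. This is another build than mm39, which the submitters' processing notes name. The E-box CACGTG, a palindrome and hence the same on both strands, is shown because TFEB and related factors of lysosomal genes are known to bind E-boxes of this core, and most strongly to its extension TCACGTGA. CACGTG stood in the windows of 3 of the 7 genes with an entry (Ctsd, Ctsl and Lgmn), and in 7.15% of all 32851 windows. TCACGTGA contains CACGTG and stood in the Ctsd window alone among the 7, and in 0.974% of all windows. Lrp2, Cubn, Ctsk and Ctss had no match. The sites of the protease genes that rose are given from 5′ to 3′ on the gene's own strand, which is the minus strand for both, as 30 bases with the motif in capitals. They lie at chr7:142387908-142387937 and chr7:142388048-142388077 for Ctsd, where the motif begins at -99 and -245 from the start, and at chr13:64370739-64370768 for Ctsl, where it begins at -236.
Ctsd, at -99: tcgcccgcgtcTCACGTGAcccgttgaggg
Ctsd, at -245: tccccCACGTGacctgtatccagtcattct
Ctsl, at -236: ggcgttagaagcCACGTGctgatctaaatt
Lgmn, with a match that begins at -49, did not pass the test at either time, and Lrp2 and Ctsk, without a match, were higher at 6 weeks. A match describes the letters of the window and was not tested as a binding site.

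Ctsk (ENSMUSG00000028111.5) encodes cathepsin K, a cysteine protease best known for the breakdown of bone collagen in osteoclasts and also made by fibroblasts. It was the least abundant of the proteases, with 182 to 650 counts per library. At 6 weeks the CD mice M48, M45, M43 and M22 had 9.52, 7.18, 8.41 and 5.54 CPM, and the HF+SD mice M5, M18, M34 and M35 had 17.1, 12.3, 10.4 and 15.3 CPM. The groups did not overlap, though M34 lay just above the highest CD mouse. The log2 fold change was 0.85 (SE 0.22, adjusted p = 0.0252), and without M45 and M48 it was 0.99 and did not pass (adjusted p = 0.0603). Leaving out M45, M5, M18 or M35 alone also ended the call, with adjusted p from 0.0535 to 0.0658. At 3 weeks CD mouse M53 had 7.92 CPM and the other CD mice 5.09 to 5.21 CPM, against 6.91 to 7.29 CPM in HF+SD. The log2 fold change was 0.29 (SE 0.16, adjusted p = 0.242), and without M53 it was 0.47 and passed (adjusted p = 0.0346).

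Ctss (ENSMUSG00000038642.11) encodes cathepsin S, a cysteine protease that is active at neutral pH and processes the class II invariant chain in antigen-presenting cells. At 3 weeks the CD mice M53, M54, M55 and M96 had 29.7, 28.6, 24.9 and 23.0 CPM, and the HF+SD mice M7, M19y, M20y and M31 had 23.2, 21.8, 19.2 and 19.2 CPM. Only the lowest CD mouse and the highest HF+SD mouse overlapped. The log2 fold change of -0.35 (SE 0.11) stood just outside the threshold (adjusted p = 0.0577). It passed with DESeq2 (adjusted p = 0.0201), with edgeR on DESeq2 size factors (0.0497), with limma on the deposited normalized signal (0.0416), and without M55 (0.0394) or M96 (0.0411). At 6 weeks CD mice had 37.9 to 50.4 CPM and HF+SD mice 33.7 to 42.8 CPM, with a log2 fold change of -0.13 (SE 0.13, adjusted p = 0.508).

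Lgmn (ENSMUSG00000021190.15) encodes legumain, a protease that cuts after asparagine and also helps to mature the cathepsins. Its values overlapped at both times. CD mice had 35.0 to 45.7 CPM and HF+SD mice 33.4 to 40.6 CPM at 3 weeks (log2 fold change -0.08, SE 0.10, adjusted p = 0.644). At 6 weeks CD mice had 49.01 to 64.1 CPM and HF+SD mice 49.7 to 57.3 CPM, with a log2 fold change of -0.0043 (SE 0.13, adjusted p = 0.986), whose sign turned under several alternatives. The genes thus fell into those that rose at 6 weeks and those whose estimate lay near or below 0 at both times.

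**Figure D2:**
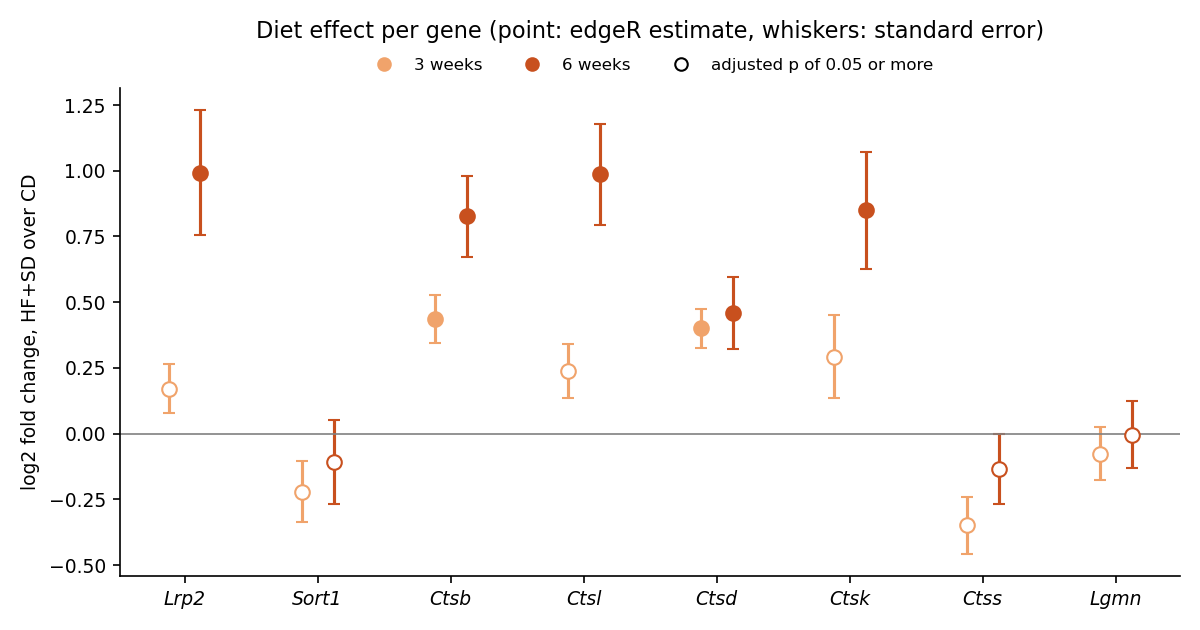
Log2 fold change of HF+SD over CD for the 8 genes that could be tested, at 3 weeks (light) and 6 weeks (dark), with the standard error as whiskers. Filled points passed an adjusted p of 0.05, which Ctsb and Ctsd did at both times and Lrp2, Ctsl and Ctsk at 6 weeks, while Sort1, Ctss and Lgmn were at or below 0.

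In the count of non-overlapping groups, 5 of the 8 tested genes had every HF+SD mouse above every CD mouse at 6 weeks, where 13.8% of all tested genes did. At 3 weeks Ctsb and Ctsd did, as did the untested Cubn on its few counts, and the share over all tested genes was 13.1%. None of the 9 had all HF+SD mice below all CD mice. The summed level of the 6 proteases was 1770 ± 177 CPM in CD and 2241 ± 92.3 CPM in HF+SD at 3 weeks. Sums at 6 weeks were 1763 ± 200 CPM in CD and 3065 ± 164 CPM in HF+SD (SD, n = 4). Most of the sum came from Ctsb, Ctsl and Ctsd.

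Whether the diet effect differed between 3 and 6 weeks was asked with an interaction term over all 16 libraries, in which 15 of 18929 genes, or 0.0792%, passed. None of the 8 passed by edgeR, while Lrp2, Ctsl and Ctsb had an unadjusted p under 0.05, as did 4217 genes in all. Lrp2 and Ctsl came closest, with effects larger by 0.77 (SE 0.25, adjusted p = 0.0893) and 0.70 (SE 0.19, adjusted p = 0.0658) on the log2 scale at 6 weeks. For Ctsk and Ctsb the difference was 0.50 (adjusted p = 0.311) and 0.34 (adjusted p = 0.195). Ctsd differed by -0.0010 (SE 0.15, adjusted p = 0.999), the smallest difference among the 8. With DESeq2, Ctsl, Lrp2 and Ctsb passed, and with edgeR without the CD mouse M22 or M43, Lrp2 and Ctsl passed. The number called among all genes moved as well. It was far larger with DESeq2, as given with the processing choices, and ran from 1 to 2715 with 1 mouse left out. A larger effect at 6 weeks was therefore not settled for any of the 8 by the test used here.

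To compare the genes with each other, CPM was divided by the length of the merged exons. On this scale of CPM per kilobase the 3 leading genes at 6 weeks on the HF+SD were Ctsb at 214.4 ± 8.07, Ctsl at 194.5 ± 14.3 and Ctsd at 170.2 ± 13.5. Below them came Ctss at 28.7 ± 3.07, Sort1 at 25.0 ± 3.34 and Lgmn at 22.8 ± 1.47, and then Ctsk at 9.13 ± 1.98, Lrp2 at 8.14 ± 1.56 and Cubn at 0.0147 ± 0.0080. Neighbours within each of these tiers lay within 1 SD of each other's range, apart from Cubn, and the tiers lay apart. In CD mice at 6 weeks Ctsd, Ctsb and Ctsl stood at 123.8 ± 11.1, 120.9 ± 13.4 and 98.2 ± 21.6, so Ctsd led there. With the longest coding transcript as the length, Ctsb led in that group instead, so the order of Ctsb and Ctsd depends on the length used.

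The levels of the genes were also set against the Tg transcript, which is not the protein that the receptors and proteases act on. The study reports decreased thyroglobulin protein in HF+SD thyroids, although the transcript was slightly elevated. A ratio to the transcript therefore does not stand for a ratio to the substrate. Per 1000 counts of Tg, Ctsb was at 2.61 ± 0.26 in CD and 3.44 ± 0.26 in HF+SD at 3 weeks, and Ctsd at 1.19 ± 0.06 and 1.53 ± 0.15 (SD, n = 4), in both without overlap. By 6 weeks the Ctsb ratio was 9.68 ± 1.76 and 12.6 ± 2.19, that of Ctsl 8.37 ± 1.99 and 12.3 ± 2.27, and that of Lrp2 0.887 ± 0.239 and 1.33 ± 0.40, with overlap of the groups for all 3. Ctsd was at 3.89 ± 0.89 in CD and 3.88 ± 0.64 in HF+SD. Sort1 was at 2.66 ± 0.27 in CD and 1.82 ± 0.18 in HF+SD, and here the groups did not overlap, with HF+SD below. These ratios were computed after the levels had been seen, and no test was run on them. They carry the spread of Tg, which was 77110 ± 13920 CPM in CD and 105200 ± 19300 CPM in HF+SD at 6 weeks.

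The calls at 6 weeks depended on the scaling. When libraries were scaled to 9 thyroid epithelial genes in place of TMM, the median of all genes shifted to -0.51 at 6 weeks and stayed at 0.00 at 3 weeks. The 9 genes were not all unchanged by the diet. With TMM, 2 of the 9 were called higher at 6 weeks (median log2 fold change 0.21). After this scaling 1 of the 9 was still called higher at 6 weeks, and their median was -0.23. On that scale none of the 5 genes passed at 6 weeks: Lrp2 was at 0.51 (adjusted p = 0.144), Ctsl at 0.48 (0.229), Ctsb at 0.31 (0.426), Ctsk at 0.29 (0.487), and Ctsd turned to -0.07 (0.86). Relative to the shifted median the values were 1.02 for Lrp2, 0.99 for Ctsl, 0.82 for Ctsb, 0.80 for Ctsk and 0.44 for Ctsd, close to those with TMM. This closeness follows from the method, since a change of scaling moves all genes by nearly the same amount. It is therefore no separate check of the rises. At 3 weeks Ctsb and Ctsd passed on this scale too, with 0.45 (adjusted p = 0.0251) and 0.41 (0.0352). When the muscle score entered the 6-week fit, Ctsb, Ctsl and Ctsk passed, while Lrp2 was at 0.74 (0.126) and Ctsd at 0.53 (0.0638).

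**Figure D3:**
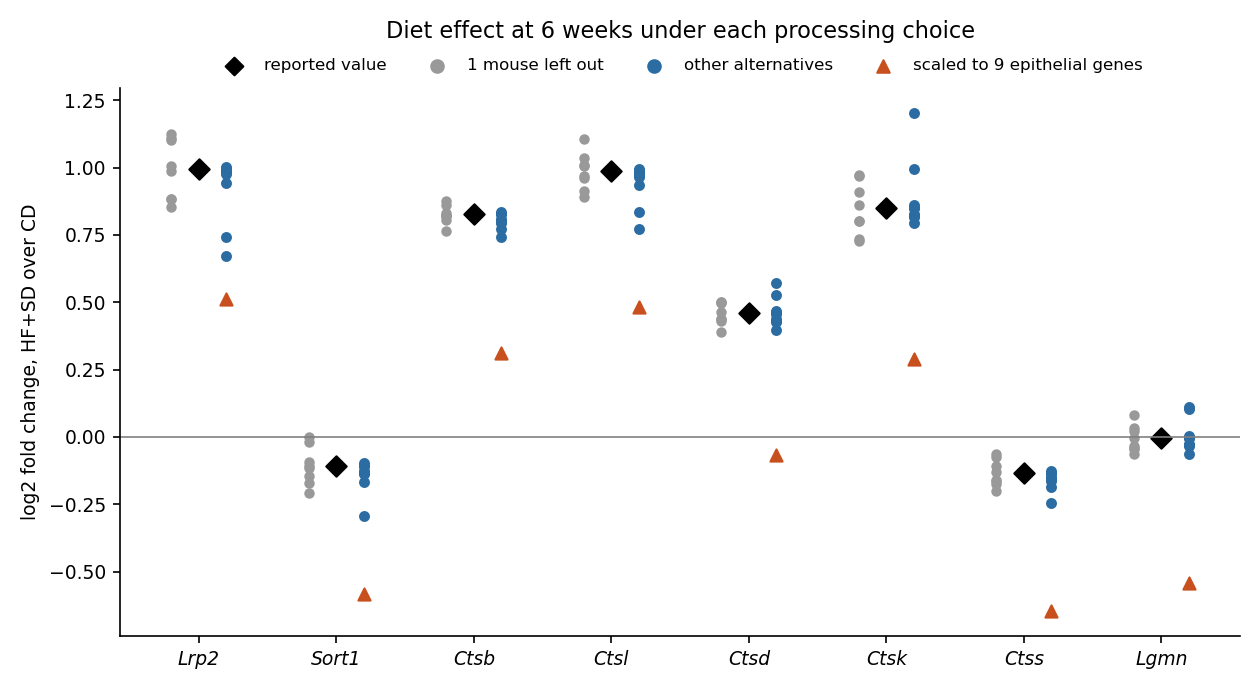
Log2 fold change at 6 weeks for the 8 tested genes as reported (diamonds), with 1 mouse left out (grey), under other alternatives (blue), and with libraries scaled to 9 thyroid epithelial genes (triangles). The triangles lie lower for every gene, with Ctsd at -0.07, and Lrp2 falls to 0.67 without M45 and M48.

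Across the 16 libraries, with the mean of each time point subtracted, the genes that rose at 6 weeks were positively correlated, to unequal degrees. Pearson's r of log2 CPM was 0.95 between Ctsb and Ctsl, 0.93 between Ctsl and Lrp2, 0.87 between Ctsb and Ctsd, and 0.86 between Ctsb and Lrp2. Ctsk followed less closely, with 0.74 to Ctsb, 0.65 to Ctsl, 0.61 to Ctsd and 0.60 to Lrp2, and Ctsd had 0.74 to Ctsl and 0.61 to Lrp2. Ctsd and Ctss moved in opposite directions (r = -0.73). These libraries share the diet contrast and their scaling, so the values describe the pattern only. By the same measure the genes most like Ctsb were Slc22a14 (r = 0.992) and Napsa (r = 0.987), and those most like Ctsl were Scg5 (0.986) and Fuca2 (0.982). Lrp2 was closest to Elovl7 (0.985) and Wdr20 (0.977), and Ctsd to Bsg (0.963) and Tpp1 (0.952). For Ctsk the closest genes were C1s1 (0.935) and Col14a1 (0.914), for Lgmn Vcan (0.805) and Lyve1 (0.776), for Ctss Slamf9 (0.874) and Snrnp48 (0.863), and for Sort1 Mmp11 (0.899) and Tcf7l1 (0.898).

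Ctsk and Ctss are also made by cells other than thyrocytes, so marker lists of those cells were read beside them. Of 13 macrophage markers, 7 rose at 6 weeks (median log2 fold change 0.64), where 12.0% of all genes did, and none passed at 3 weeks by edgeR, where DESeq2 called 2 higher. On the epithelial scale none of the macrophage markers passed at 6 weeks (median 0.11, against -0.51 for all genes). With the muscle covariate 6 were higher (median 0.71), and without M45 and M48 also 6 (median 0.63), with none lower in either. Their summed level was 281 to 459 CPM in CD and 435 to 510 CPM in HF+SD at 6 weeks, and 194 to 255 and 213 to 302 CPM at 3 weeks. C1qb rose at 6 weeks (log2 fold change 0.64, adjusted p = 0.00815) and Lyz2 was at 0.10 (0.828), while Ctss was at -0.13. Of the antigen-presenting and B cell markers, 1 of 9 tested was lower at 3 weeks, namely Cd74 (log2 fold change -0.61, adjusted p = 0.0119), which encodes the invariant chain. H2-Aa was at -0.36 (0.135), the median of the 9 was -0.0006, and the sum of the 11 markers was 436 to 637 CPM in CD and 355 to 461 CPM in HF+SD, at the time when Ctss was at -0.35. At 6 weeks 1 of 8 was higher and the sums were 395 to 648 and 460 to 654 CPM. Of 10 fibroblast markers, 3 rose at 3 weeks and 1 fell at 6 weeks, where the sums were 712 to 1487 CPM in CD and 979 to 1312 CPM in HF+SD. The highest CD sums were those of M45 (1478 CPM) and M48 (1487 CPM), with 1180 CPM in M43. Without M45 and M48, 3 fibroblast markers were higher and none lower at 6 weeks (median 0.39), and with the muscle covariate 4 were higher and none lower (median 0.50), while that covariate left none called at 3 weeks. Dcn fell at 6 weeks (log2 fold change -0.82, adjusted p = 0.0293) and Col3a1 was at 0.92 (0.131), while Ctsk rose. At 3 weeks the CD mice M54, M55 and M96 had fibroblast sums of 594.5 to 694.3 CPM and Ctsk of 5.09 to 5.21 CPM. M53 had a sum of 1023 CPM and Ctsk of 7.92 CPM. The HF+SD mice of that time had sums of 900 to 1136 CPM and Ctsk of 6.91 to 7.29 CPM. Of the osteoclast markers, 4 of 6 were in the table, and Acp5, the osteoclast's acid phosphatase, was lower at both times. Its 6-week call was lost without M45 and M48 and with the muscle covariate. The summed level of the osteoclast markers at 6 weeks was 12.6 to 27.8 CPM in CD and 8.91 to 13.7 CPM in HF+SD. Most of that sum was Acp5 itself, with means of 17.5 CPM in CD and 9.61 CPM in HF+SD. Mmp9 did not pass at either time (adjusted p = 0.346 at 3 weeks and 0.826 at 6 weeks), and Oscar and Dcstamp were too low to be tested. The part of these cells in the levels of Ctss and Ctsk was not tested.

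**Figure D4:**
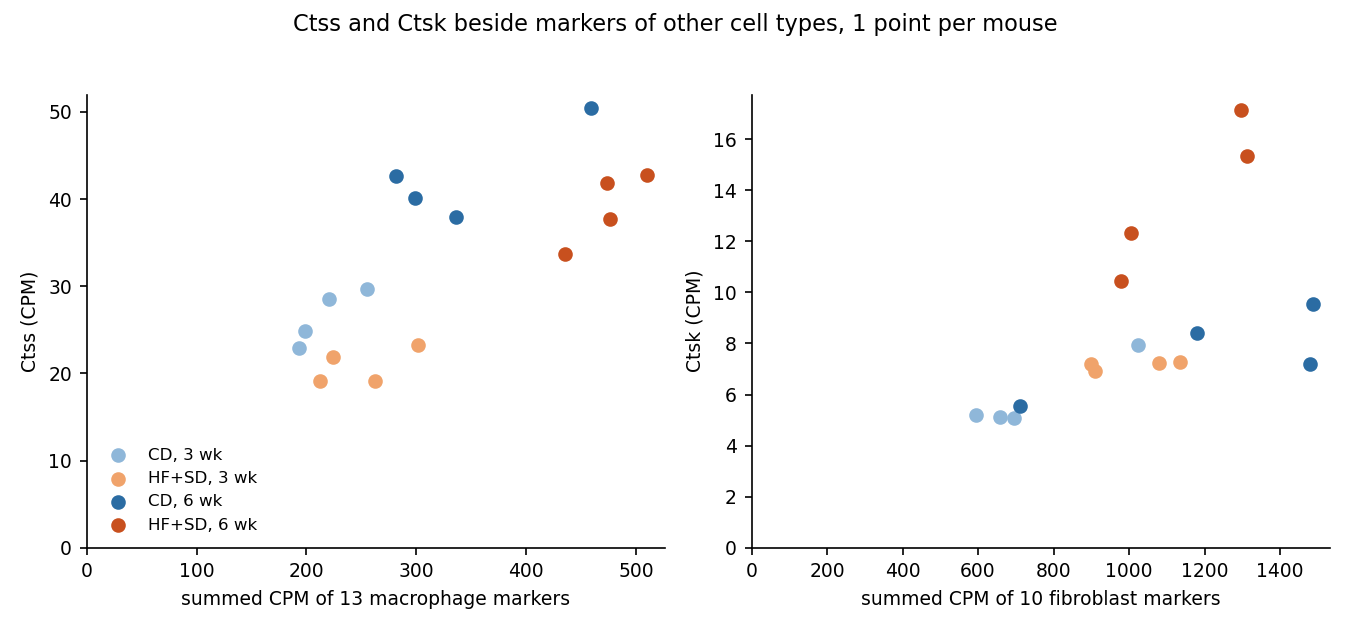
Ctss (left) against the summed CPM of 13 macrophage markers and Ctsk (right) against that of 10 fibroblast markers, with 1 point per mouse and linear axes that start at 0. At 6 weeks the HF+SD mice lie at macrophage sums of 435 to 510 CPM without higher Ctss. Their Ctsk lies above that of the CD mice at fibroblast sums of 979 to 1312 CPM, between 712 CPM in M22 and 1487 CPM in M48. Within each group, however, the mouse with the highest macrophage sum also has the highest Ctss. The lowest mouse is the same for both only in CD at 3 weeks and HF+SD at 6 weeks. For Ctsk and the fibroblast sum, the highest mouse is the same in each group except HF+SD at 6 weeks.

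Other marker lists moved as well. All 8 endothelial markers rose at both times, with medians of 0.88 and 1.77, and adipocyte markers fell in 6 of 9 at 3 weeks and 8 of 9 at 6 weeks. Of 13 thyrocyte markers, 7 rose at each time. Of the skeletal muscle markers, 3 of 27 tested rose at 3 weeks and 32 of 33 fell at 6 weeks. None was called lower at 6 weeks without M45 and M48, or with the muscle covariate, which is built from these genes. Their sum was 1016 CPM in the CD mouse M22, below the 1411 to 4664 CPM of the HF+SD mice. Of 5 C cell markers, 3 fell and 1 rose at 3 weeks and 2 fell at 6 weeks, and of 4 parathyroid markers none passed at either time. At 6 weeks, however, alternatives called 1 to 4 of the parathyroid markers lower. Their part in the results on the 9 genes was not tested.

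Further genes of uptake and lysosomal breakdown were read against the same shares over all genes, 9.07% higher and 5.78% lower at 3 weeks and 12.0% higher and 9.55% lower at 6 weeks. Their lists were also chosen with earlier results of these data known. Of 14 further lysosomal proteases and peptidases that could be tested, 4 rose and 1 fell at 3 weeks, and 6 rose and none fell at 6 weeks, with medians of 0.14 and 0.41. On the epithelial scale 1 was higher and 1 lower at 6 weeks. Napsa, an aspartic protease related to Ctsd, rose by 0.78 (adjusted p = 0.0024) and 1.68 (0.000762). Ctsa, a serine carboxypeptidase that protects other lysosomal enzymes, rose by 0.78 (0.0015) and 1.02 (0.00335). Tpp1, a tripeptidyl peptidase, rose at 3 weeks by 0.37 (0.00579), and the carboxypeptidase Scpep1 at 6 weeks by 0.83 (0.00517). Ctsh, an aminopeptidase, fell at 3 weeks by 0.33 on the log2 scale (0.0442), and at 6 weeks its log2 fold change was 0.31 (0.36). With the epithelial scaling or the muscle covariate, none of these further proteases was called lower at 3 weeks. Inhibitors of cysteine cathepsins rose beside the proteases, with 2 of 3 tested at 3 weeks and 2 of 4 at 6 weeks. Cst6, which inhibits legumain and cathepsins, rose by 1.47 (0.0068) and 1.05 (0.0178), Cst3 rose at 3 weeks by 0.46 (0.00585), and Cstb at 6 weeks by 0.54 (0.0497). On the epithelial scale no inhibitor passed at 6 weeks.

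Among 29 partners of the uptake receptors and endocytic adaptors, 4 rose and none fell at 3 weeks, and 7 rose and 1 fell at 6 weeks (medians 0.04 and 0.22), against 2 higher and 2 lower at 6 weeks on the epithelial scale. Lrp8, a receptor related to Lrp2, rose from 2.14 to 8.12 CPM at 3 weeks (log2 fold change 1.93, adjusted p = 0.000421) and from 1.76 to 11.3 CPM at 6 weeks (2.68, 0.0011). Dab2, the adaptor that links megalin to clathrin, rose by 0.49 (0.00599) and 1.24 (0.000212), without overlap of the groups at either time. Sorcs2, a relative of sortilin, rose by 0.71 (0.00161) and 0.92 (0.00512), and Vldlr by 0.52 at 3 weeks (0.0388). At 6 weeks Vldlr had a log2 fold change of -0.82 and did not pass (adjusted p = 0.295).

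Genes of enzyme sorting by mannose 6-phosphate passed in 3 of 16 cases at each time, all of them higher (medians 0.12 and 0.24). They were Nagpa (0.40, adjusted p = 0.0217), Gnptg (0.34, 0.0222) and Ap1m2 (0.34, 0.0201) at 3 weeks, and Ap1m2 (1.01, 0.0129), the receptor M6pr (0.62, 0.0243) and Gnptg (0.50, 0.0194) at 6 weeks. The 6-week count was 1 without M45 and M48 and 0 with the muscle covariate or on the epithelial scale, which also left 0 at 3 weeks. Of 22 subunits of the V-ATPase, the proton pump that acidifies lysosomes, 8 rose and 1 fell at 3 weeks, and 10 rose and 1 fell at 6 weeks (medians 0.25 and 0.45). The number higher at 6 weeks was 3 without M45 and M48, 3 with the muscle covariate and 2 on the epithelial scale, where the median was -0.05. That scale left 3 higher at 3 weeks. Atp6v0d2 rose by 1.64 (0.000856) and 2.50 (0.000172), Atp6v1a by 0.83 (0.00038) and 1.44 (0.0115), and Atp6v1c2 by 0.76 (0.0319) and 1.52 (0.0177). Atp6v0a4, a subunit isoform known from acid-secreting cells, fell by 1.39 (0.000537) and 1.67 (0.0202) on the log2 scale.

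Lysosomal hydrolases other than proteases had the largest number of calls of these lists, with 20 of 36 higher and 1 lower at each time and medians of 0.32 and 0.59. Galc, which removes galactose from sphingolipids, rose by 0.77 (adjusted p = 0.00037) and 1.40 (0.00072). Glb1 rose by 0.76 (0.00107) and 0.93 (0.00587), Hexa by 0.73 (0.000437) and 1.12 (0.00101), and Plbd2 by 0.57 (0.00374) and 1.18 (0.00326). The gene that fell was Acp5 at both times, by 0.89 (0.0153) and 0.86 (0.0399) on the log2 scale. Without M45 and M48 or with the muscle covariate, no hydrolase was called lower at 6 weeks. The 6-week count of higher hydrolases was 10 without M45 and M48, 7 with the muscle covariate and 3 on the epithelial scale. On that scale the list median stood 0.61 above that of all genes, a distance that a change of scaling leaves nearly unchanged by construction. Membrane proteins and transporters of the lysosome passed in 3 of 24 cases at each time, all higher (medians 0.10 and 0.19), a share near that of all genes. At 6 weeks the epithelial scale gave none higher and 3 lower, and the muscle covariate none higher and 2 lower. Npc2, a cholesterol carrier of the lumen, rose by 0.79 (0.0111) and 1.39 (0.0126), the channel Tpcn1 by 0.59 (0.00861) and 0.67 (0.041), Clcn7 at 3 weeks by 0.37 (0.0146) and Laptm5 at 6 weeks by 0.66 (0.0396). Of 13 transcription factors of the MiT/TFE family and their regulators, Rragd rose at 3 weeks (1.13, 0.000386) and Lamtor2 fell at 6 weeks (log2 fold change -0.44, 0.0406), with medians of -0.01 and -0.13. DESeq2 called 2 higher at 3 weeks and 2 lower at 6 weeks, the epithelial scale 4 lower at 6 weeks, and both the muscle covariate and the fit without M45 and M48 gave 1 higher and none lower.

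**Figure D5:**
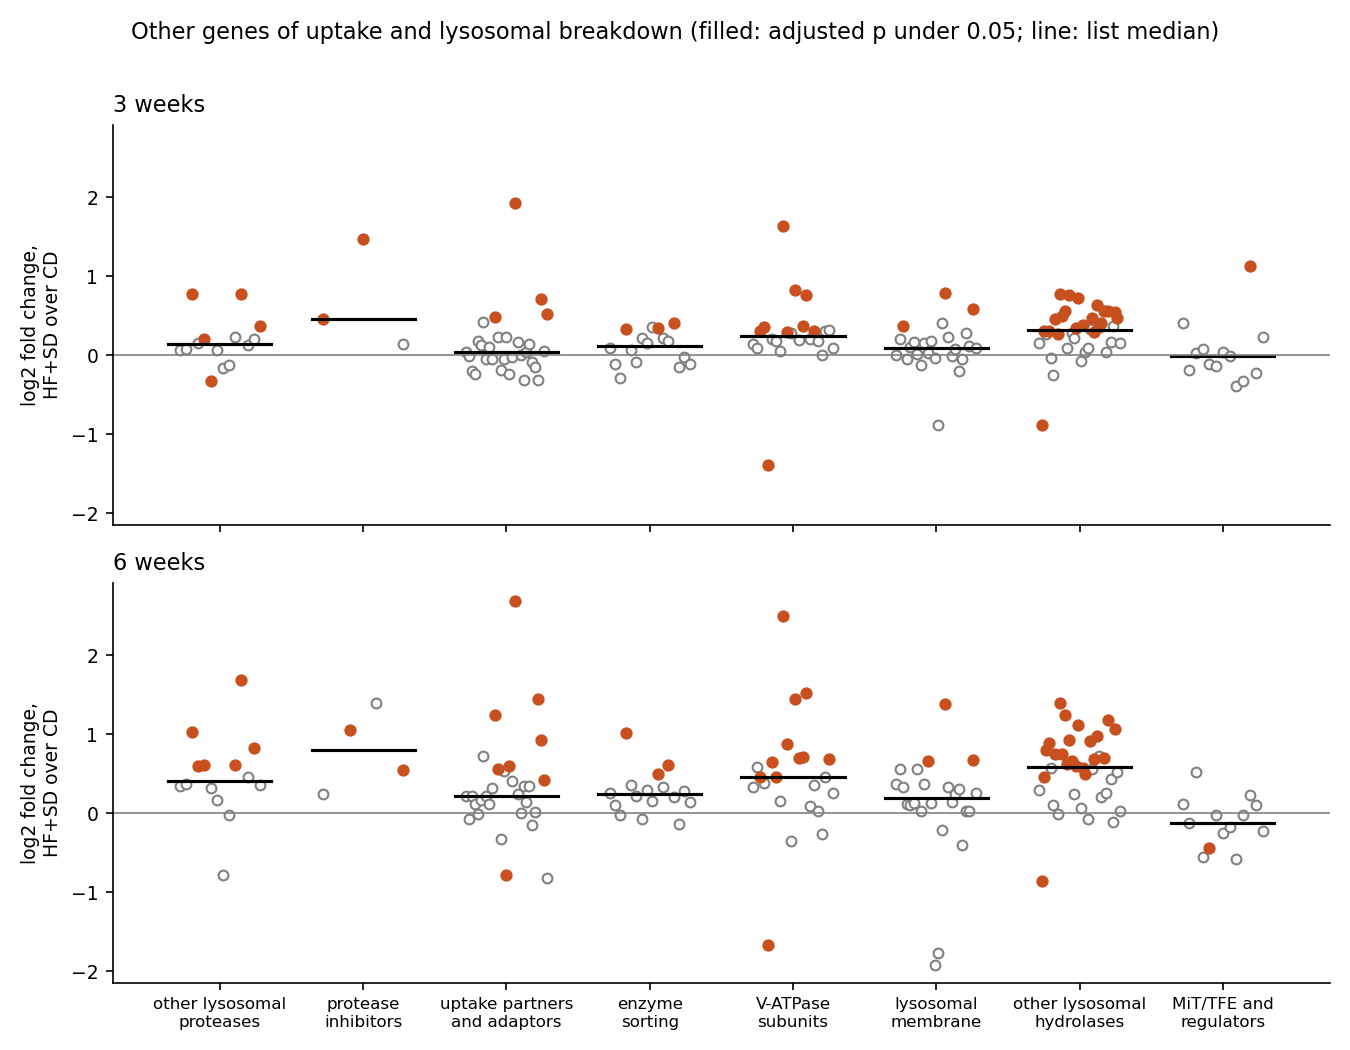
Log2 fold change of HF+SD over CD for each tested gene of 8 lists of uptake and lysosomal breakdown, at 3 weeks (upper panel) and 6 weeks (lower panel), with filled points for an adjusted p under 0.05 and a line at each list's median. The hydrolases hold 20 filled points above 0 at each time, while the MiT/TFE list has its median at -0.01 and -0.13.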

How the data were processed

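Poly(A) RNA of 16 mouse thyroids was sequenced. The authors deposited raw counts per gene without normalization, and a normalized signal in which each count is divided by 1 size factor per library. The submitters' processing notes name Trim Galore 0.6.7, STAR, DESeq2 1.36.0, R 4.1.0 and the build mm39. Names (20841 of 21640 genes) and exon lengths came from GENCODE on GRCm38. Diets were compared at each time with edgeR 4.0.16 in R 4.3.3 (TMM, filterByExpr, glmQLFit, glmQLFTest; threshold 0.05 adjusted), each time point fitted alone, and the interaction was fitted over all libraries. No library was a copy of another. Mouse differences exceeded counting error (chi-square per gene 15.1 to 871 within groups). The study states n = 3 for CD at 6 weeks without naming mice, and all 4 were used. Alternatives used DESeq2 1.42.0 and limma 3.58.1 (log2 of signal plus 1), other scalings, covariates and left-out mice.

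The members and the 22 gene lists were chosen with earlier results of these data known. From each pathway list, up to 3 genes per time and direction with the largest change past the threshold and a mean of at least 5 CPM are named, from each cell-type list the highest markers, and for each member the 2 genes most alike in pattern. Some genes that this rule selects are not reported here.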

Additional observations from a re-analysis of the deposited data

Results flagged for a closer look

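In 4 mice of 1 group, a mouse was marked where its gap to the nearest other mouse took a larger share of the group's range than Dixon's 95% limit allows. This held in 3 of 36 groups of the 9 genes, and chance marks about 1 in 20. Ctsk was 7.92 CPM in the CD mouse M53 at 3 weeks, against 5.09 to 5.21 CPM in the other CD mice. The summed fibroblast markers of M53 were also higher, at 1023 CPM against 594.5 to 694.3 CPM in the other CD mice. Ctsl was 775.3 CPM in the CD mouse M55 at 3 weeks, against 587.5 to 609.3 CPM in the others. Lgmn was 64.1 CPM in the CD mouse M45 at 6 weeks, against 49.01 to 50.02 CPM in the others.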

How the results depend on the processing

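Ctsb and Ctsd at 3 weeks and, at 6 weeks, Ctsb and Ctsl kept their calls under all alternatives run except the epithelial scaling at 6 weeks and the added fold minimum. At 6 weeks 5 of the 9 genes were called, against 4 with DESeq2 size factors in edgeR, 3 with the muscle covariate, 3 without M45 and M48 (chosen after seeing the data), 0 with the epithelial scaling, 0 with the fold minimum and 2 to 5 with 1 mouse left out. At 3 weeks 2 were called, against 0 with the fold minimum and 2 to 4 with 1 mouse left out. For the interaction 0 were called, against 3 with DESeq2 and 0 to 2 with 1 mouse left out.

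Over all genes 3927 were called at 6 weeks, 55.6% of them higher, against 6182 in 1 fit of all 16 libraries (44.4% higher), 1989 with the muscle covariate, 1957 without M45 and M48, 2308 with the fold minimum and 1934 to 5743 with 1 mouse left out. With the epithelial scaling 15.0% of the calls were higher. At 3 weeks 2560 were called, against 1420 in 1 fit, 1657 with the muscle covariate, 803 with the fold minimum and 1448 to 3393 with 1 mouse left out. The interaction gave 15 genes, against 1790 with DESeq2, 582 with the epithelial scaling (3.1% higher, 86.7% with TMM), 2 with the muscle covariate and 1 to 2715 with 1 mouse left out. The causes were not tested.

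The sign turned for Lgmn at 6 weeks with no filter (0.0045), with the muscle covariate (0.11) and without M45 and M48 (0.10), and ran from -0.065 to 0.083 with 1 mouse left out. At 3 weeks it ran from -0.13 to 0.0017. Ctsd at 6 weeks turned with the epithelial scaling (-0.068). In the interaction, the epithelial scaling gave -0.31 for Ctss, -0.37 for Sort1, -0.46 for Lgmn and -0.14 for Ctsb, against a median of -0.50 for all genes. There Ctsd turned with DESeq2 (0.043), the muscle covariate (0.084) and no filter (0.013) and Sort1 with the muscle covariate (-0.053). With 1 mouse left out, the interaction of Ctsd ran from -0.054 to 0.078, of Sort1 from -0.064 to 0.17 and of Lgmn from -0.064 to 0.14.

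No paired analysis was possible because the labels give mouse names and no numbers that groups share. Cubn is limited by depth. With 4 mice a group, the smaller effects at 6 weeks, where the spread between mice was 31.2% against 18.2% at 3 weeks, are less precise.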
